A study of Mus musculus with 24 samples.

Results

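The genes described here encode neurotrophins, the receptors that bind them, the sorting protein that carries their precursors and a peptide precursor that they induce. They were the 7 genes Bdnf, Ntf3, Ntrk2, Ntrk3, Ngfr, Sort1 and Vgf, found by gene name among the 24340 genes that all 6 deposited tables share. RNA was sequenced from the striatum of 1 brain hemisphere in 24 male mice. The groups were WT-vehicle with 5 libraries, R6/1-vehicle with 6, WT-RGFP109 with 6 and R6/1-RGFP109 with 7, and each library is taken from the labels as a mouse of its own. R6/1 mice are hemizygous for a transgene with exon 1 of the human HTT gene and an expanded CAG repeat, and their wild type (WT) littermates on the C57BL/6J background served as controls. RGFP109, an inhibitor of the histone deacetylases HDAC1 and HDAC3, was injected intraperitoneally at 30 mg/kg, 5 times a week for 3 weeks, while vehicle mice received the same solvent of dimethyl sulfoxide and saline. Treatment began at 11 to 14 weeks of age, and tissue was taken at 14 to 17 weeks, 18 h after the last injection. R6/1 models Huntington's disease with a fragment of the human protein in addition to both mouse copies, and it does not lose the mouse gene.

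Neurotrophins are secreted growth factors that are made as precursors, stored in granules and cut to their mature form. Mature brain-derived neurotrophic factor (BDNF) acts through the receptor tyrosine kinase TrkB, and neurotrophin-3 acts mainly through TrkC. All of them also bind the p75 receptor, which together with sortilin prefers the uncut precursors. Striatal projection neurons depend on BDNF that is made for the most part in the cortex and carried to the striatum along cortical axons, so that little Bdnf mRNA is found in the striatum itself. A loss of BDNF supply is among the best studied features of Huntington's disease models.

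The genes lie on 7 chromosomes of the mm10 mouse genome. Bdnf spans positions 109674700 to 109727043 of chromosome 2 on the plus strand. Ntf3 spans 126101412 to 126166744 of chromosome 6 on the minus strand. Ntrk2 spans 58806569 to 59133970 of chromosome 13 on the plus strand, and Ntrk3 spans 78192114 to 78577838 of chromosome 7 on the minus strand. Ngfr spans 95568821 to 95587698 of chromosome 11 on the minus strand. Sort1 spans 108284064 to 108361519 of chromosome 3 and Vgf spans 137030295 to 137033351 of chromosome 5, both on the plus strand. In GENCODE release 21, antisense genes overlap Bdnf, Ntrk2, Ntrk3 and Sort1, and the library kit does not mark strand, so that reads of a gene and of its antisense partner cannot be told apart. The values are per gene and do not separate isoforms, which matters for Ntrk2 and Ntrk3, whose truncated receptors lack the kinase, and for Bdnf, which is transcribed from several starts.

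The 250 bases before each annotated start were read from the RefSeq promoters of GRCm38.p6, where Bdnf had 7 windows, Ntf3 had 2, and Ntrk2 and Ngfr had 1 each. The table held no entry for Ntrk3, Sort1 or Vgf. The cyclic AMP response element half-site, searched as TGACG or its reverse CGTCA, was present in 1 of the 11 windows, against 17.8% of 32851 promoter windows of the same length. That window lies before a Bdnf start, and it is shown with the half-site in capitals because Bdnf is the member furthest below wild type in vehicle-treated R6/1 mice. The half-site begins 35 bases before the start. The window before the single Ngfr start is shown because Ngfr is the member that differs most between the treated groups. It holds no match to the half-site and has 70.4% G and C, against a median of 52.4% over all windows. A match or its absence says only which letters are in these windows.

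Bdnf, chr2:109692186-109692435, plus strand: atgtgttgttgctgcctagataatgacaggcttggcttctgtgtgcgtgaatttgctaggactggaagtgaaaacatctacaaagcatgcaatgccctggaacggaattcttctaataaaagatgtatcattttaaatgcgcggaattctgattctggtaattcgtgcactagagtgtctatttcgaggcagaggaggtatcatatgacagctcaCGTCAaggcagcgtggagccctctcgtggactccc
Ngfr, chr11:95587699-95587948, minus strand: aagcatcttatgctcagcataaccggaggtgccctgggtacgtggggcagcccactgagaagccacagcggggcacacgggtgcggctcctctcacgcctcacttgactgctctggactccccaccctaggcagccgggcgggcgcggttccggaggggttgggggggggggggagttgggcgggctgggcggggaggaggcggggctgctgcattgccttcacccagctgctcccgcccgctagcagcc

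Also searched on both strands were the E-box CACGTG, found in 1 Ntf3 window and in 6.02% of all windows, and the GC box GGGGCGGGG, found in 2 Bdnf windows and in 10.4% of all windows.

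Expression is given as FPKM, fragments counted per length of exon and per size of library, a unit that corrects for gene length and so allows levels of different genes to be compared. Each table holds 1 pooled FPKM value per group from the authors, not a value per mouse. The spread between mice is therefore not in these values, no test between groups was run, and the folds below describe pooled values. Each group occurs in 3 tables, whose values for the group differ by a common factor of at most 3.92%. A log2 fold is log2 of FPKM + 0.05 in the first group minus that in the second, which understates the fold of low genes, and a gene is said to be past the threshold at an absolute log2 fold above 0.5, the fold of 1.41 that the study also used. The background is the 16822 genes with a mean of at least 0.1 FPKM over the 4 groups, and all 7 members passed this filter. As a measure of how far genes scatter, the robust SD of the log2 fold over these genes was 0.31 for R6/1-vehicle against WT-vehicle and 0.27 for R6/1-RGFP109 against WT-RGFP109. It was 0.09 for R6/1-RGFP109 against R6/1-vehicle and 0.13 for WT-RGFP109 against WT-vehicle. Striatal identity was present in all groups, although 9 of 10 striatal projection neuron markers were past the threshold and lower in both genotype comparisons, with medians of -1.44 and -1.37. Drd1, the dopamine receptor of direct pathway neurons, was at 57.0 FPKM in WT-vehicle and 28.6 in R6/1-vehicle, and with treatment 60.3 in WT-RGFP109 and 26.1 in R6/1-RGFP109. In bulk tissue, fewer cells of a type and less RNA per cell cannot be told apart.

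The ligands were the lowest of the 7 genes, together with Ngfr. Bdnf was at 2.64 FPKM in WT-vehicle and 1.77 in R6/1-vehicle, and with treatment 2.91 in WT-RGFP109 and 2.19 in R6/1-RGFP109. Both wild type groups thus lay above both R6/1 groups, and within each genotype the treated group lay above the vehicle group. Ntf3, which encodes neurotrophin-3, was at 0.765 FPKM in WT-vehicle and 0.587 in R6/1-vehicle, and with treatment 0.655 in WT-RGFP109 and 0.429 in R6/1-RGFP109. Its order differed from that of Bdnf in that the treated group lay below the vehicle group in each genotype.

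The kinase receptors were expressed far above their ligands. Ntrk2, which encodes TrkB and is transcribed in neurons and, in its truncated form, in astrocytes, was at 98.5 FPKM in WT-vehicle and 83.0 in R6/1-vehicle, and with treatment 97.9 in WT-RGFP109 and 82.4 in R6/1-RGFP109. Ntrk3, which encodes TrkC, was at 24.8, 21.8, 25.1 and 21.2 FPKM in the same order of groups. For both genes the groups of 1 genotype lay next to each other. Ngfr, which encodes the p75 receptor and in the adult forebrain is best known from cholinergic neurons of the basal forebrain, was at 1.99 FPKM in WT-vehicle and 1.67 in R6/1-vehicle, and with treatment 3.17 in WT-RGFP109 and 1.39 in R6/1-RGFP109. The WT-RGFP109 group stood apart from the other 3, and its level was 2.27 times that of R6/1-RGFP109.

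Sort1 and Vgf were abundant. Sort1 encodes sortilin, which binds precursors of neurotrophins, serves as a co-receptor of p75 and directs pro-BDNF into regulated granules. It was at 79.4 FPKM in WT-vehicle and 56.3 in R6/1-vehicle, and with treatment 75.1 in WT-RGFP109 and 56.5 in R6/1-RGFP109. Vgf, a precursor of granule peptides that neurotrophins and neuronal activity induce, was at 111 FPKM in WT-vehicle and 95.8 in R6/1-vehicle, and with treatment 104 in WT-RGFP109 and 88.9 in R6/1-RGFP109. Both genes were lower in the R6/1 groups than in either wild type group. Vgf, Ntrk2 and Sort1 exceeded 95.5%, 94.8% and 92.3% of the background genes in mean FPKM, whereas Bdnf exceeded 28.3% and Ntf3 exceeded 13.4%.

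**Figure D1:**
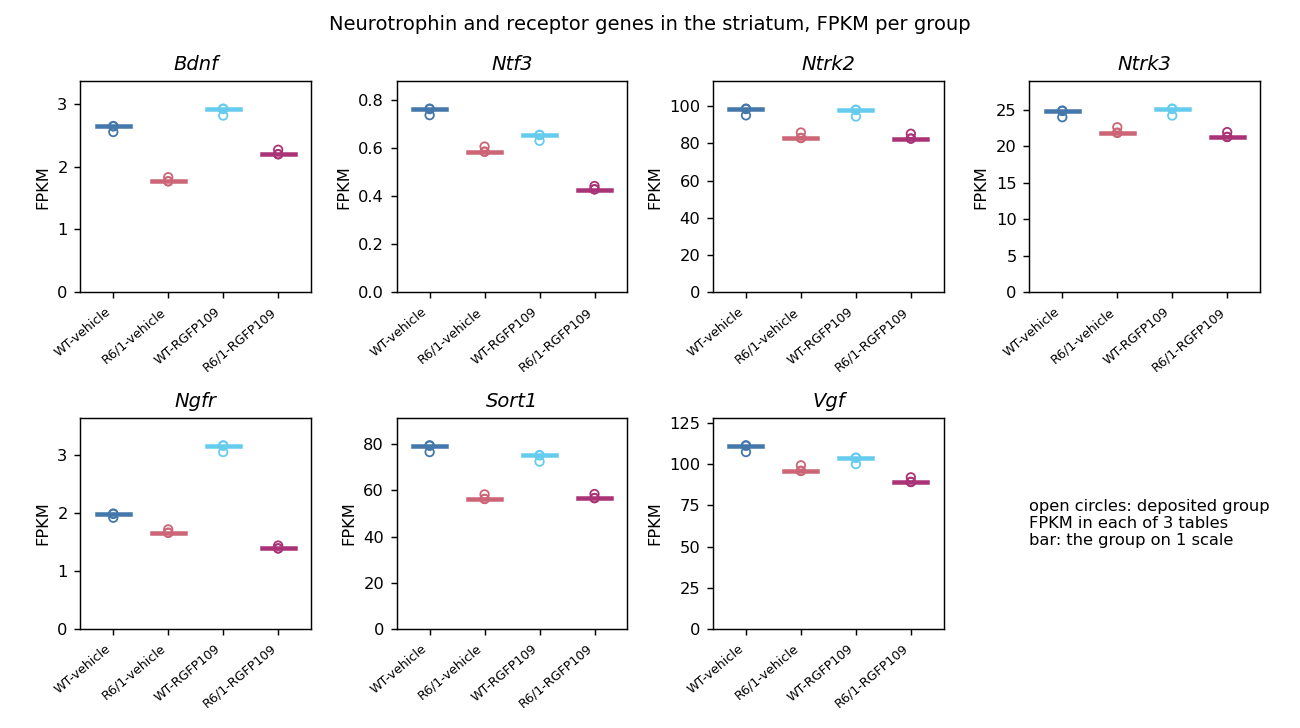
FPKM of the 7 genes in the 4 groups, with open circles for the authors' pooled value of a group in each of its 3 tables and a bar for the group on 1 scale. The R6/1 bars lie below the wild type bars in every panel, Bdnf is lowest in R6/1-vehicle at 1.77 FPKM, and Ngfr is highest in WT-RGFP109 at 3.17 FPKM. The circles do not show the spread between mice.

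The first comparison asked how the disease transgene affects these genes without treatment. In R6/1-vehicle against WT-vehicle all 7 genes were lower, as were 51.9% of background genes, and 1 of 7, Bdnf, was past the threshold. Among background genes 18.1% were past it in either direction, 12.7% as lower and 5.47% as higher, so that 1 of 7 is close to the background. Bdnf had a log2 fold of -0.57, a ratio of 0.675, and 10.7% of background genes were as low or lower. Sort1 followed with -0.49, just inside the threshold. Ntf3 had a log2 fold of -0.36, and Ngfr and Ntrk2 had -0.25 each. Vgf with -0.21 and Ntrk3 with -0.19 were nearest to wild type. The median of the 7 was -0.25, against -0.01 over all background genes. Bdnf was inside the threshold, and 0 of 7 past it, with a pseudocount of 0.5, at -0.47, and when all groups were scaled to an equal sum of FPKM, called equal sums, at -0.44. Equal sums also brought Ntf3 to -0.23, Ngfr to -0.13, Ntrk2 to -0.12, Vgf to -0.08 and Ntrk3 to -0.06, and a pseudocount of 0.5 brought Ntf3 to -0.22.

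High and low genes differ in scatter, and the members were therefore also set beside genes of similar level. Among genes with a mean of 0.5 to 5 FPKM, which include Bdnf, Ntf3 and Ngfr, 13.2% lay as low as Bdnf or lower. Among genes of at least 5 FPKM, which include the other 4, 8.86% lay as low as Sort1, 20.5% as low as Ntrk2, 23.2% as low as Vgf and 25.6% as low as Ntrk3. Of the 4 abundant genes, Sort1 thus lay nearest to the lower end of its level class.

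The second comparison, R6/1-RGFP109 against WT-RGFP109, posed the genotype question again in treated mice, and it shares no mouse with the first. All 7 genes were again lower, as were 49.7% of background genes. Past the threshold were 2 of 7, Ngfr and Ntf3. Of background genes 16.4% were past it in either direction, 11.2% as lower and 5.19% as higher. Ngfr had a log2 fold of -1.16, a ratio of 0.448, and 2.67% of background genes were as low or lower. Ntf3 had a log2 fold of -0.56, or a ratio of 0.679. Among genes of 0.5 to 5 FPKM, 3.88% were as low as Ngfr and 12.4% as low as Ntf3. In that class 22.6% were past the threshold in either direction. Sort1 had -0.41 and Bdnf had -0.40, both inside the threshold, while Ntrk2, Ntrk3 and Vgf lay between -0.25 and -0.22. The median of the 7 was -0.40. Ntf3 was inside the threshold with equal sums, at -0.48, and with a pseudocount of 0.5, at -0.32. Equal sums brought Ntrk2, Ntrk3 and Vgf to between -0.16 and -0.13.

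All 7 genes were below 0 in both genotype comparisons, as were 40.8% of background genes. By contrast 0 of 7 passed the threshold as lower in both, where 7.60% of background genes did. Ntrk2 at -0.25 and -0.25, Vgf at -0.21 and -0.22, Ntrk3 at -0.19 and -0.24, and Sort1 at -0.49 and -0.41 had closely similar folds in both sets of mice. The low genes Bdnf, Ntf3 and Ngfr were less alike, with differences between the 2 genotype folds, treated minus vehicle, of 0.16, -0.20 and -0.91.

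**Figure D2:**
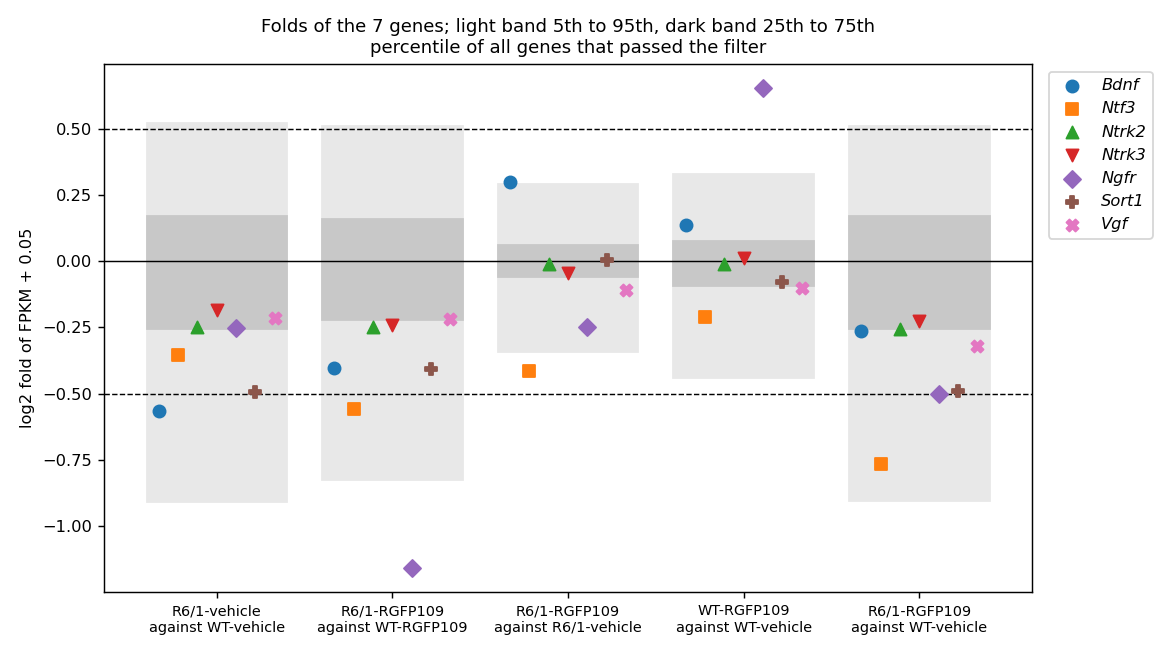
Log2 folds of FPKM + 0.05 for the 7 genes in 5 comparisons, with the light band from the 5th to the 95th and the dark band from the 25th to the 75th percentile of the 16822 background genes, and dashed lines at the threshold. All 7 symbols lie below 0 in both genotype comparisons, and Ngfr lies outside the light band in R6/1-RGFP109 against WT-RGFP109 at -1.16 and in WT-RGFP109 against WT-vehicle at 0.66. In R6/1-RGFP109 against R6/1-vehicle, Bdnf at 0.30 and Ntf3 at -0.41 lie outside it as well. The bands are over genes of all levels. Among genes of 0.5 to 5 FPKM, 5.99% are as high as Bdnf and 4.03% as low as Ntf3.

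Markers of other cells moved with several of these folds. For Bdnf, 8 of 10 markers of neocortical projection neurons were past the threshold and lower in R6/1-vehicle against WT-vehicle, with a median of -0.72, and 1 of 10 in R6/1-RGFP109 against WT-RGFP109, with a median of -0.19. Their summed level was 422 FPKM in WT-vehicle and 237 in R6/1-vehicle, and with treatment 392 in WT-RGFP109 and 291 in R6/1-RGFP109. Of this sum Slc17a7 alone was at 298, 161, 277 and 200 FPKM in that order of groups. None of the 10 was at 0 in any group. Tbr1, a transcription factor of deep cortical layers, was at 14.9, 9.23, 13.7 and 12.5 FPKM in that order of groups, and Neurod6, a factor of cortical excitatory neurons, was at 13.7, 8.16, 13.0 and 11.6 FPKM. R6/1-vehicle was the lowest group for Bdnf, for the summed level and for 8 of the 10 markers, the exceptions being Cux2 and Nrn1. For Ntrk2, 2 of 8 astrocyte markers were past the threshold and lower in the first genotype comparison and 3 of 8 in the second, with medians of -0.36 and -0.43 and summed levels of 1224, 882, 1216 and 879 FPKM. The part of cortical or astrocytic RNA in the folds of Bdnf and Ntrk2 was not tested.

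The effect of the drug in diseased mice was addressed by R6/1-RGFP109 against R6/1-vehicle. In this comparison 0 of 7 genes passed the threshold, against 5.27% of background genes in either direction, 2.84% as lower and 2.43% as higher. Bdnf had a log2 fold of 0.30, a ratio of 1.23, and 4.79% of background genes were as high or higher. Among genes of 0.5 to 5 FPKM, whose robust SD was 0.15 here, 5.99% were as high as Bdnf. In that class 4.03% were as low as Ntf3 and 9.94% as low as Ngfr. Ntf3 had a log2 fold of -0.41, with 3.83% of background genes as low or lower, and this fold was -0.23 with a pseudocount of 0.5. Ngfr had -0.25, with 7.31% as low or lower. Vgf had -0.11. Ntrk3 at -0.04, Ntrk2 at -0.01 and Sort1 at 0.00 had folds smaller than the robust SD over background genes. Beside Bdnf, 3 of 10 neocortical markers were past the threshold and higher, 0 were lower, and their median was 0.43. Neurod6 had a log2 fold of 0.51. Whether Bdnf moved apart from these markers was not tested. Beside Ntf3, all 8 markers of the choroid plexus, a tissue of the ventricle beside the striatum, were past the threshold and lower, with a median of -2.25 here and -1.68 in WT-RGFP109 against WT-vehicle. Their summed level was 1724 FPKM in WT-vehicle and 763 in R6/1-vehicle, and with treatment 424 in WT-RGFP109 and 107 in R6/1-RGFP109. Of this sum Ttr alone was at 1445, 608, 306 and 30.4 FPKM in that order of groups, and Enpp2 at 236, 130, 102 and 67.9. R6/1-RGFP109 was the lowest and WT-vehicle the highest group for these markers and for Ntf3, although the other groups were ordered differently, and the part of adjoining tissue in the Ntf3 fold was not tested.

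In wild type mice the drug was compared with vehicle in WT-RGFP109 against WT-vehicle. Here 1 of 7 genes, Ngfr, was past the threshold, where 7.13% of background genes were past it in either direction, 4.29% as lower and 2.84% as higher. Ngfr had a log2 fold of 0.66, a ratio of 1.57, and 2.00% of background genes were as high or higher. Among genes of 0.5 to 5 FPKM, 2.15% were as high or higher. Ntf3 had -0.21 and Bdnf had 0.14, and the other 4 members lay between -0.10 and 0.01. The direction of the smallest, Ntrk2 at -0.01, turned to 0.02 with equal sums, which also moved Ntrk3 from 0.01 to 0.05, Sort1 from -0.08 to -0.05 and Vgf from -0.10 to -0.07. Ntf3 was at -0.13 with a pseudocount of 0.5.

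The treatment folds of the genotypes were then set against each other, since the 2 treatment comparisons share no mouse. Ngfr was higher with treatment in wild type mice and lower in R6/1 mice, a difference of -0.90 between the log2 folds, with R6/1 minus WT as the order. A difference as low or lower was found for 2.07% of background genes, and 9.95% of background genes differed by more than 0.5 in either direction. Ntf3 had a difference of -0.21 and Bdnf had 0.16, near the robust SD of 0.16 over background genes. For the other 4 genes the difference lay between -0.06 and 0.08. Bdnf was above 0 in both treatment comparisons, Ntf3, Ntrk2 and Vgf were below 0 in both, and the remaining 3 had opposite signs. Among background genes 50.0% had the same sign in both.

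Cholinergic neuron markers were set beside Ngfr, and single markers differed from it in size and direction. The summed level of 6 such markers was 25.9 FPKM in WT-vehicle and 18.3 in R6/1-vehicle, and with treatment 30.7 in WT-RGFP109 and 17.6 in R6/1-RGFP109, the same order of groups as for Ngfr. In R6/1-RGFP109 against WT-RGFP109, 5 of 6 were past the threshold and lower, with a median of -0.87. In R6/1-vehicle against WT-vehicle 3 were lower and 2 higher, with a median of -0.49, while Ngfr had -0.25. The lower ones were Chat at -1.47, Slc5a7 at -1.16 and Slc18a3 at -0.93, and the higher ones were Isl1 at 0.67 and Gbx2 at 0.66. In WT-RGFP109 against WT-vehicle 1 of 6 was past the threshold and higher, the median was 0.26, and all 6 were above 0. The gene past it was Gbx2 at 1.13, a low gene with 0.327 FPKM in WT-vehicle and 0.779 in WT-RGFP109. Chat at 0.16, Slc5a7 at 0.22 and Slc18a3 at 0.06 rose less than Ngfr at 0.66. Chat, the enzyme that makes acetylcholine, was at 8.79 FPKM in WT-vehicle and 3.13 in R6/1-vehicle, and with treatment 9.84 in WT-RGFP109 and 2.88 in R6/1-RGFP109. Lhx8, a transcription factor of forebrain cholinergic neurons, was at 3.32, 3.21, 4.54 and 2.76 FPKM. Of the 6 markers 5 were, like Ngfr, highest in WT-RGFP109, the exception being Isl1. None of the 6 was at 0 in any group, and the part of cholinergic tissue in the Ngfr fold was not tested.

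**Figure D3:**
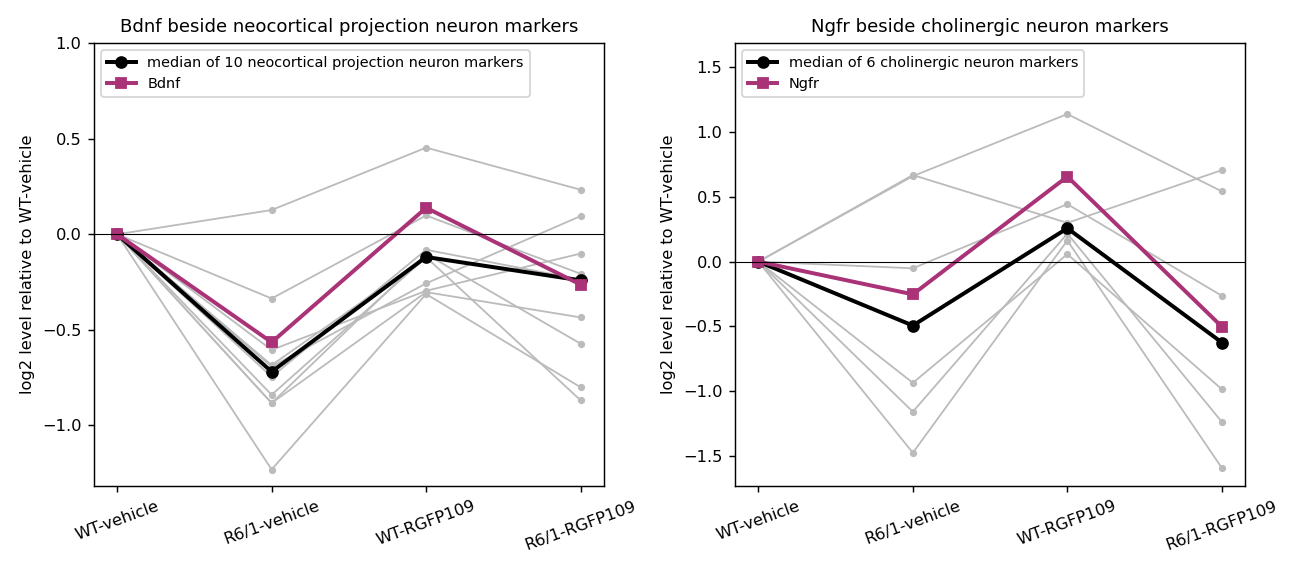
Log2 level relative to WT-vehicle, of FPKM + 0.05, in the 4 groups for Bdnf with 10 neocortical projection neuron markers and for Ngfr with 6 cholinergic neuron markers. Thin lines are single markers, the black line is their median and the coloured line is the member. Bdnf and the neocortical median are lowest in R6/1-vehicle at -0.57 and -0.72, and Ngfr and the cholinergic median are highest in WT-RGFP109 at 0.66 and 0.26.

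Treated R6/1 mice were last compared with untreated wild type mice, which asks how far the treated diseased striatum remained from the wild type level. This comparison shares its mice with others above. In R6/1-RGFP109 against WT-vehicle all 7 genes were lower, as were 51.5% of background genes. Past the threshold were 2 of 7, Ntf3 and Ngfr, against 18.3% of background genes in either direction and 13.0% as lower. Ntf3 had a log2 fold of -0.77 and Ngfr had -0.50, barely past the threshold. Sort1 had -0.49, Vgf had -0.32 and Bdnf and Ntrk2 had -0.26 each. Ntrk3 was nearest to wild type with -0.23. With a pseudocount of 0.5 neither gene was past the threshold, Ntf3 being at -0.45 and Ngfr at -0.40. Ngfr was inside it also with equal sums, at -0.38, and after centring on the median, at -0.49. Equal sums brought Vgf to -0.20, Bdnf to -0.14, Ntrk2 to -0.13 and Ntrk3 to -0.10.

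Further relatives of the sorting protein and the receptors were read in the same way. Sorcs2, a relative of sortilin that binds TrkB and p75, was at 25 FPKM in WT-vehicle and 14.7 in R6/1-vehicle, and with treatment 23.4 in WT-RGFP109 and 13.8 in R6/1-RGFP109. Its genotype log2 folds of -0.76 and -0.75 were past the threshold in both vehicle-treated and drug-treated mice, and its treatment folds of -0.09 in R6/1 and -0.10 in WT were inside it. Sorcs1 and Sorcs3, of the same family, had genotype log2 folds of -0.04 and -0.26 in vehicle-treated mice and -0.35 and -0.31 in drug-treated mice. Sorl1, another receptor with a sortilin domain, had 0.25 and 0.13, and Nradd, a relative of p75, had 0.22 and 0.08. Ntf5, which encodes the TrkB ligand neurotrophin-4, reached 0.122 FPKM in WT-vehicle at most and did not pass the filter. Except for Sorcs2, these relatives were named after their values were seen.

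**Figure D4:**
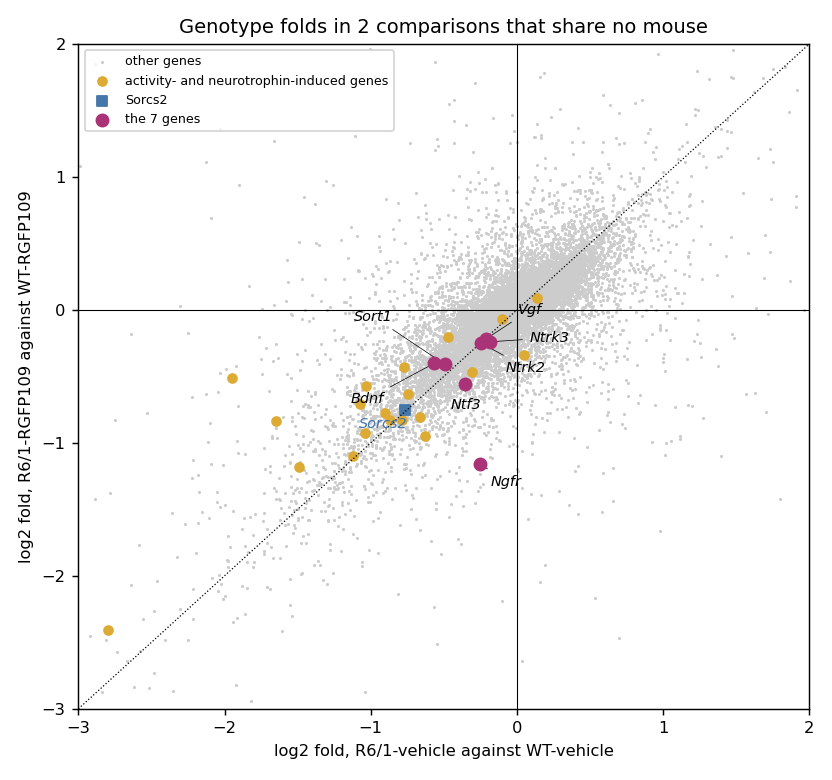
Log2 fold of R6/1-vehicle against WT-vehicle on the horizontal axis and of R6/1-RGFP109 against WT-RGFP109 on the vertical axis, with 1 point per background gene and a dotted line of equality; genes beyond the axes are not drawn. The 7 genes lie in the lower left quadrant, with Ngfr below the line at -0.25 and -1.16, and Sorcs2 lies on the line further out at -0.76 and -0.75.

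Genes that process, store and transport neurotrophins mostly stayed inside the threshold. Of 20, 3 were past it as lower in the first genotype comparison and 1 in the second, 0 were higher in either, and the medians were -0.11 and -0.10. Among background genes 12.7% and 11.2% were past the threshold as lower in these comparisons, 5.47% and 5.19% as higher, and 7.60% as lower in both. The gene past it in both was Chgb, a granin of secretory granules, with log2 folds of -0.53 and -0.54. Furin, which cuts neurotrophin precursors, had -0.08 and 0.05. Of 21 Trk adaptors and modulators, 0 were lower in either comparison and 1 was higher in the first, namely Sos1, an exchange factor that activates Ras, at 0.52 and 0.37. Sos1 and Furin were named after their values were seen.

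Among 20 partners of p75, 4 were past the threshold as lower in the first genotype comparison and 2 in the second, against 12.7% and 11.2% of background genes. In either comparison 0 were higher, and the medians were -0.04 and -0.0047. Mag, past the threshold at -0.51 in the first and at -0.03 in the second, is also on the list of oligodendrocyte markers. The 2 genes past it in both were Rtn4r, which encodes the Nogo receptor, with log2 folds of -1.28 and -0.83, and Lingo1, its signaling partner, with -0.81 and -0.66. Among 28 genes of the MAPK, PI3K and CREB cascades that Trk receptors drive, 2 were lower in both comparisons, namely Hras with -0.77 and -0.63 and Akt2 with -0.72 and -0.61, and the medians of the list were -0.11 and -0.12. The other 26 genes lay inside the threshold in each comparison. Among background genes 7.60% were past it as lower in both.

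Genes that neuronal activity and neurotrophins induce had lower medians than the other 5 lists. Of 20, 15 were past the threshold as lower in R6/1-vehicle against WT-vehicle and 14 in R6/1-RGFP109 against WT-RGFP109, 0 were higher in either, and 14 were lower in both. The shares of background genes lower in the first, in the second and in both were 12.7%, 11.2% and 7.60%. The medians were -0.82 and -0.74, against -0.01 over all background genes in the first comparison. Egr2, an early growth response factor, was at 4.47 FPKM in WT-vehicle and 0.600 in R6/1-vehicle, and with treatment 3.51 in WT-RGFP109 and 0.621 in R6/1-RGFP109, with genotype log2 folds of -2.80 and -2.41. Npas4, an activity-dependent factor that binds Bdnf promoters, was at 17.2, 5.43, 10.9 and 6.07 FPKM, with -1.65 and -0.83. Arc, a regulator of synaptic receptors, had -1.49 and -1.18, and Cort, which encodes cortistatin, a peptide of cortical interneurons, had -1.95 and -0.51. Many of these genes are also strongly expressed in striatal projection neurons, whose markers were lower as well, and the part of either in these folds was not tested. With treatment, Cort alone of the 20 was past the threshold in R6/1 mice, at 1.19, and Npas4 alone in wild type mice, at -0.66.

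Of 16 regulators of Bdnf transcription, 2 were lower in both genotype comparisons, where 7.60% of background genes were, and 0 were higher in either. The medians were 0.05 and 0.06. Besides Npas4 the gene lower in both was Bhlhe40, a repressor of the basic helix-loop-helix family, with -0.70 and -0.99. The drug's targets were on this list. Hdac3 was at 58.6 FPKM in WT-vehicle and 59.3 in R6/1-vehicle, and with treatment 59.5 in WT-RGFP109 and 59.6 in R6/1-RGFP109, and Hdac1 was at 3.52, 4.18, 3.08 and 3.92 FPKM. The treatment log2 folds in R6/1 and wild type mice were 0.01 and 0.02 for Hdac3 and -0.09 and -0.19 for Hdac1. Both were named after their values were seen.

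**Figure D5:**
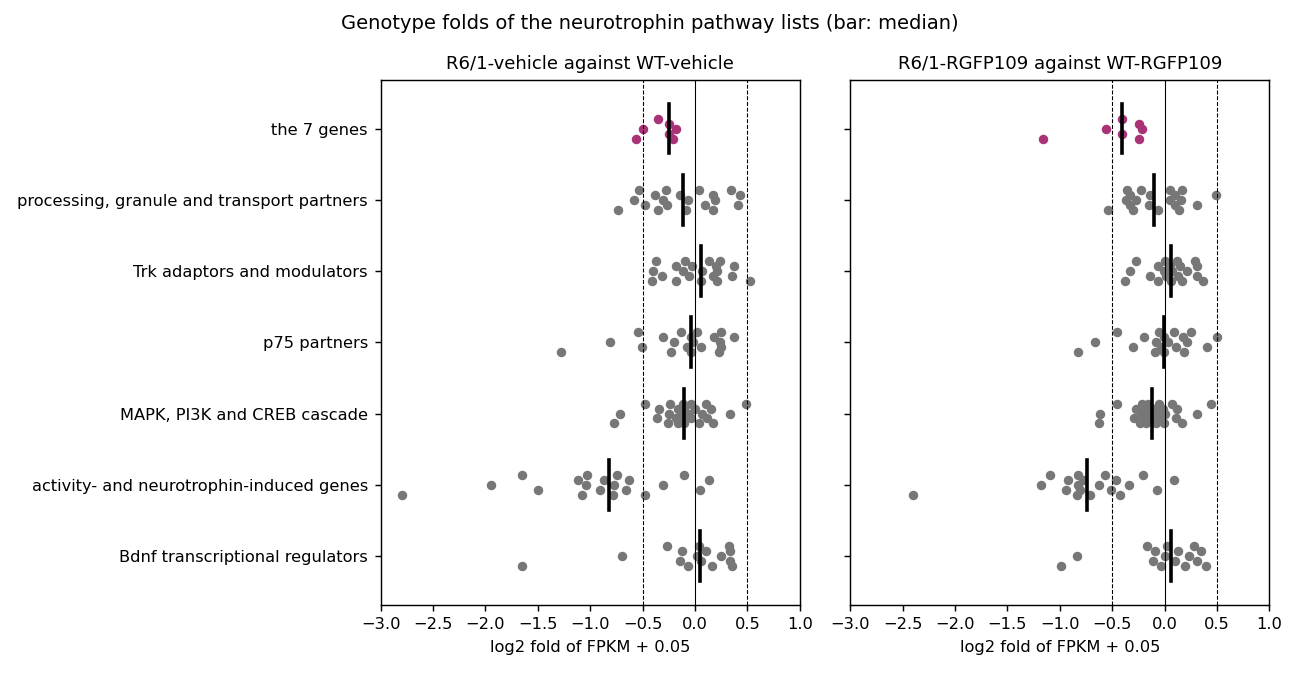
Log2 folds of FPKM + 0.05 of each gene in 6 pathway lists, with the 7 genes on top, for both genotype comparisons. Points are genes, thick bars are medians and dashed lines mark the threshold. The activity- and neurotrophin-induced genes have medians of -0.82 and -0.74, and the medians of the Trk adaptors, p75 partners, processing partners, cascade genes and Bdnf regulators lie between -0.12 and 0.06.

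For each member the genes with the most similar course over the 4 groups were sought among 13715 genes with at least 1 FPKM, by the smallest gap of centred log2 levels. For Bdnf these were Opn3, an opsin, and Nr4a3, an orphan nuclear receptor induced by activity, with largest gaps of 0.04 each. Nr4a3 was at 3.53, 2.25, 3.90 and 2.79 FPKM in WT-vehicle, R6/1-vehicle, WT-RGFP109 and R6/1-RGFP109. For Ngfr they were Igfn1 and Rasgrf2, an exchange factor of Ras, with gaps of 0.09 and 0.12. Rasgrf2 was at 15.7, 12.2, 22.9 and 11.8 FPKM, again highest in WT-RGFP109. For Ntf3 they were Tnfaip8 and Bmp6, a bone morphogenetic protein, with gaps of 0.06 each. The abundant members had closer neighbours, namely Tmem184b and Nr2e1 for Ntrk2, Sema4b and Ptrhd1 for Ntrk3, Abhd14a and Mtss1l for Sort1, and Mid1 and Mid1ip1 for Vgf, all with gaps of at most 0.01. Similarity over 4 pooled values is a description of levels only.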

How the data were processed

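The authors aligned single-end reads of 51 bp from TruSeq libraries, sequenced in 2 pools, with STAR 2.5.0b to the RefSeq transcripts of mm10 and computed FPKM with Cufflinks 2.2.1. They compared the groups in pairs with Cuffdiff 2 and deposited 6 tables with 1 pooled FPKM value per group and gene. The tables also hold the authors' fold changes, test statistics, p-values and q-values, which were not used here. Depth per library is unknown from these values, so no counting interval is given.

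Starts of genes are the deposited ones with 1 added. Log2 folds of FPKM + 0.05 were taken within the table of each pair. For levels, the common factor of each table was removed and the geometric mean of the group's 3 values taken. Antisense overlaps came from GENCODE release 21 for mouse, and all 4 members with promoters were matched by symbol.

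The members and gene lists were chosen with earlier results of these data known. Named were all members, up to 4 genes per pathway list with the largest mean absolute log2 fold among those past 0.5 in the same direction in both genotype comparisons, up to 2 by the same rule for treatment (none met it), the 2 nearest genes per member, and leading genes of the marker lists. The results of some genes under this rule are not reported here. Markers of oligodendrocytes, microglia, vessels and meninges, thalamus and hypothalamus were computed as well. On simulated data for R6/1-vehicle against WT-vehicle, with 24340 genes and 200 changed by a log2 fold of 1, 200 were past the threshold. The simulated noise was far below the robust SD of 0.31 in the real values, and the lowest genes were not among those changed. The simulation thus checks the calculation only and not how well real folds are found. Alternatives covered the pseudocount, the filter, the scaling, the tables a fold was taken from and the threshold. Python 3.11.15, numpy 2.4.6, pandas 2.3.3 and matplotlib 3.10.9 were used.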

Additional observations from a re-analysis of the deposited data

How the results depend on the processing

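The 7 members kept the direction of their folds in 239 of 240 recomputed values, the exception being Ntrk2 in WT-RGFP109 against WT-vehicle under equal sums. Scaling every group to an equal sum of FPKM moved the median of all genes in R6/1-vehicle against WT-vehicle from -0.01 to 0.11. The genotype folds of all members stayed below 0 under it but came nearer to 0, that of Ntrk3 in R6/1-vehicle against WT-vehicle from -0.19 to -0.06, while the share of lower genes among those past the threshold went from 69.8% to 49.7%, from 68.4% to 56.3% in treated mice, and from 71.4% to 52.4% for R6/1-RGFP109 against WT-vehicle. Bdnf in R6/1-vehicle against WT-vehicle was -0.44 under equal sums and -0.47 with a pseudocount of 0.5, both inside the threshold, so that 0 members passed under either. In R6/1-RGFP109 against WT-RGFP109, 1 member, Ngfr, remained past the threshold under equal sums, with a pseudocount of 0.5 and with a mean of at least 1 FPKM, which leaves out Ntf3. Ntf3 was at -0.48 and -0.32 under the first pair. In R6/1-RGFP109 against WT-vehicle the count of members was 0 with a pseudocount of 0.5, and 1 under equal sums, after centring on the median and with a mean of at least 1 FPKM. Ngfr in WT-RGFP109 against WT-vehicle stayed past the threshold in every alternative, between 0.55 and 0.69. With a threshold of 0.25 the members past it were 4 of 7 in R6/1-vehicle against WT-vehicle, beside 7145 of 16822 background genes. The genotype comparison of treated mice had 4 members and 6390 background genes past it. For the drug in R6/1 mice these counts were 2 and 2209. For the drug in wild type mice they were 1, namely Ngfr, and 2936. Treated R6/1 mice against untreated wild type mice had 6 members and 7096 background genes past it.

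Counts over all genes depended on low genes. With a pseudocount of 0.5 they were 1941, 1673, 422, 548 and 1924 in the comparisons R6/1-vehicle against WT-vehicle, R6/1-RGFP109 against WT-RGFP109, R6/1-RGFP109 against R6/1-vehicle, WT-RGFP109 against WT-vehicle and R6/1-RGFP109 against WT-vehicle, against 3051, 2761, 887, 1199 and 3073 as reported. With a mean of at least 1 FPKM they were 1931, 1673, 416, 523 and 1904, and with a threshold of 0.25 they were 7145, 6390, 2209, 2936 and 7096. Without a filter the counts were 1483 for R6/1-RGFP109 against R6/1-vehicle and 2076 for WT-RGFP109 against WT-vehicle. The number of genes whose treatment folds differed by more than 0.5 was 811 with a pseudocount of 0.5, against 1673. No paired analysis was possible because the deposited columns hold 1 pooled value per group and carry no replicate numbers, and values per library were not used here, so that no library was left out in turn.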

Other observations

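Oligodendrocyte markers were past the threshold and lower for 5 of 7 in R6/1-vehicle against WT-vehicle and for 0 of 7 in R6/1-RGFP109 against WT-RGFP109, with medians of -0.80 and -0.20. Microglial markers had medians of -0.28 and -0.27, with 0 of 7 past the threshold in either. Vascular and meningeal markers had medians of -0.23 and -0.08, with 3 and 1 of 10 lower. Thalamic and hypothalamic markers had medians of -0.85 and -0.24, with 4 and 3 of 8 lower and 0 and 1 higher. The higher one was Oxt at 1.27. In R6/1-vehicle against WT-vehicle the 4 lower ones were the peptide genes Avp at -3.43, Trh at -2.75, Oxt at -1.66 and Pmch at -1.51. Tcf7l2 at 0.34, Rora at 0.20, Lef1 at -0.18 and Hcrt at -0.09 were inside the threshold. Oxt and Pmch were low genes, at 0.117 and 0.137 FPKM in R6/1-vehicle. The same 4 of 8 were past the threshold as higher in R6/1-RGFP109 against R6/1-vehicle, and 0 as lower.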
